A study of Mus musculus with 30 samples.

Results

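The 43 genes described here code for the enzymes and transporters that build and sulfate glycosaminoglycans. They were taken from a list of named members, and all 43 were found among the 43629 genes of the count table. They were followed in RNA-seq libraries of 30 fracture calli, each from 1 male C57BL/6J mouse. The mice were 20 weeks old, either lean or with diet-induced obesity (DIO) from a high-fat diet, and every mouse of both diets had an open tibial osteotomy. Calli came from 3 mice of each group: lean mice on days 3, 5, 7 and 10 after fracture (d3, d5, d7, d10), and DIO mice on those 4 days and also on days 14 and 21 (d14, d21). The diets were compared on d3 to d10 only, as later lean calli were not analysed here. The soft tissue around the callus was removed at harvest and the whole callus was extracted, without separating its cells.

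Glycosaminoglycans are long sugar chains that are built on core proteins in the Golgi. A linker of xylose, galactose and glucuronic acid is laid down on the core protein, and is then extended to chondroitin or dermatan sulfate, or to heparan sulfate. The chains need sulfate and nucleotide sugars, which have to be activated and carried into the secretory pathway. In the soft callus, as in cartilage, chondroitin sulfate on aggrecan holds water and gives the matrix its stiffness, while heparan sulfate binds growth factors and hyaluronan is spun out at the cell surface without core protein or sulfate. By role, 4 of the genes serve sulfate supply, 4 nucleotide sugars, 6 the linker, 8 the chondroitin and dermatan chain and 8 its sulfation. Of the others, 5 build the heparan chain, 7 modify its sulfation, and Has2 makes hyaluronan.

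Total counts per library ran from 13247122 to 26365620, with a median of 16854427. Levels are given as CPM, the counts of a gene scaled to a common library total with TMM factors, in the order of mice 1, 2 and 3, and changes as the log2 fold change with its standard error (SE) from edgeR. A gene was called at an adjusted p under 0.05 over all genes tested. All 43 genes passed the filter on low counts in every fit. The lowest count of any of them was 2, for Hs6st2 in lean d10 mouse 1. As a check of the tissue, the summed level of 13 chondrocyte marker genes was 962 to 1520 CPM in lean calli of d3 and 5847 to 17362 CPM on d7. On d10, lean mouse 1 had 74566 CPM, and mice 2 and 3 had 16685 and 13892 CPM, so that mouse 1 stood apart. DIO calli had 813 to 1886 CPM on d3, 19916 to 45594 CPM on d7 and 4212 to 8683 CPM on d10. At least 10 of the 13 chondrocyte markers reached 3 counts in every library of each group, and none was at 0 in all 3 libraries of a group. In whole calli, fewer cells of a type and less RNA per cell cannot be told apart.

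In DIO calli, 11 of the 43 genes rose from d3 to d7, led by those that supply sulfate and nucleotide sugars, and none fell. Papss2, Slc26a2 and Slc35d1 were each about 4-fold higher (4.43, 4.0 and 4.01), and Extl1, Chst11, Ugdh, Xylt1, Sulf1, Impad1, Csgalnact1 and Fam20b rose by 3.77 to 1.52-fold. Among all genes, 4.67% were called higher and 2.62% lower. The median log2 fold change of the 43 genes was 0.22, beside 0.025 for all 16995 genes tested. DESeq2 called 13 higher and also none lower. Without DIO d3 mouse 1 or mouse 2 the count was 7.

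From d7 to d10 the course in DIO calli turned. Compared after the values had been seen, 21 of the 43 genes fell and 2, Chst13 and Ust, rose, where 7.01% of all genes were called lower and 6.01% higher. The largest falls were those of Has2, Csgalnact1, Papss2, Slc26a2 and Chsy3, with log2 fold changes of -3.15, -2.80, -2.58, -2.44 and -2.25. Against d3, 8 genes were lower on d10 (Has2, Csgalnact1, Sulf2, Chst12, Xylt1, Dse, Dsel and Chsy1) and 2 were higher (Ext1 and Chst15), beside 10.8% and 11.1% of all genes. This count of 10 was 6 without DIO d3 mouse 2, DIO d10 mouse 2 or DIO d10 mouse 3, and 5 without DIO d3 mouse 3. Between d10 and d14 edgeR called none of the 43, of which 9 had an unadjusted p under 0.05, DESeq2 called 1, and 0.759% of all genes were called. Without DIO d10 mouse 1, edgeR called 1.

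Between d14 and d21, 8 of the 43 genes fell and 2 heparan sulfation genes, Hs6st1 and Ndst2, rose, beside 9.03% and 10.6% of all genes. The count of 10 varied with single mice, and was 2, 16 and 3 without DIO d14 mice 1, 2 and 3, and 1 and 6 without DIO d21 mice 1 and 3. Over the 6 days as a whole, 39 of the 43 genes differed between DIO groups, where 59.1% of all genes did. The mean level was highest on d7 for 18 of the 43 genes and on d5 for another 10, and lowest on d21 for 29. These days were not counted over all genes, so they cannot be called particular to the 43.

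The lean course was fitted on its own, with 12 libraries against 18 for DIO calli, so the counts of the 2 courses are not directly comparable. Whether the courses differed between diets was tested separately, as given below. Between d3 and d7 the hyaluronan synthase Has2 was the only one of the 43 that was called, and it fell, where 1.67% of all genes were called. From d3 to d10, 7 genes rose and 3 fell, beside 15.2% and 14.1% of all genes. Those that rose were 3 of the linker (B3gat3, B4galt7, Xylt2), 3 of the heparan chain (Extl1, Ext1, Ext2) and the chondroitin sulfotransferase Chst11, and those that fell were Has2, Csgalnact2 and Ugp2. None was called between d7 and d10 by edgeR, with 11 at an unadjusted p under 0.05 and 2 called by DESeq2, beside 2.73% of all genes. Over the 4 lean days, 9 of the 43 differed, beside 19% of all genes. The mean level was highest on d10 for 22 of the 43 genes, which was likewise not counted over all genes.

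These lean counts moved with single mice. Between d3 and d10 the count of 10 was 6 without d3 mouse 2 and 7 without d10 mouse 1, and between d7 and d10 the count was 1 without d10 mouse 2 and 3 without d10 mouse 3. The call of Has2 between d3 and d7 was lost without any of the d7 mice or without d3 mice 1 or 2. Over the 4 days the count was 4 without d3 mouse 2 or d10 mouse 1, and 5 without d3 mice 1 or 3, d5 mice 1 or 2 or d7 mice 1 or 2.

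**Figure D1:**
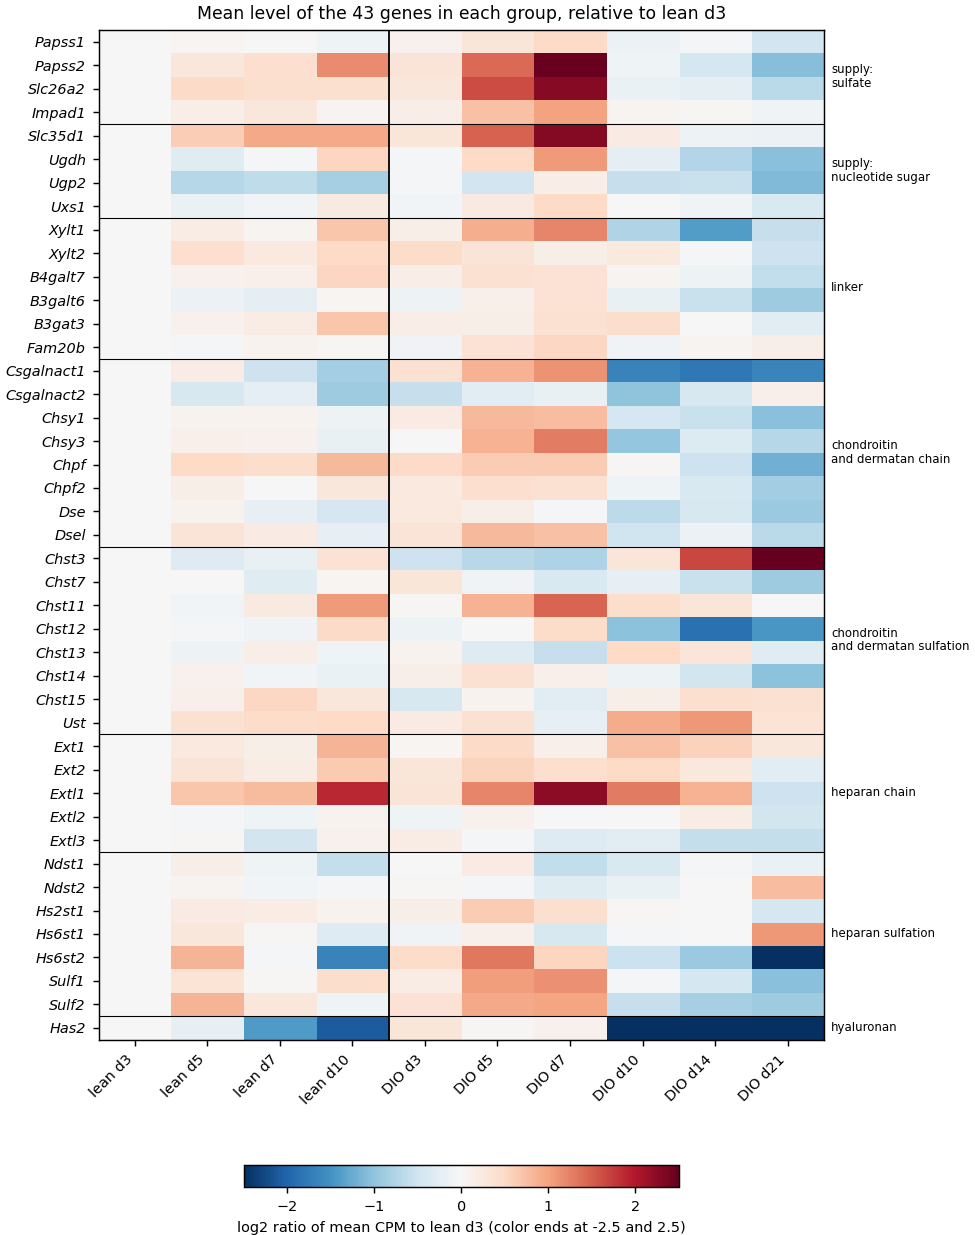
The log2 ratio of each gene's mean CPM to its mean in lean calli of d3, for the 43 genes in rows by role and the 10 groups of 3 mice in columns (color scale from -2.5 to 2.5). The dark red cells of Papss2, Slc26a2, Slc35d1 and Extl1 stand in the DIO d7 column and that of Chst3 in the DIO d21 column, and the columns of DIO d10 to d21 are blue for Has2 and Csgalnact1.

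Between diets, more of the 43 genes were called on d7 than on d3, d5 or d10. On d7, 7 of the 43 genes were higher in DIO than in lean calli and none was lower, where 1.4% of all genes were called higher and 0.92% lower. They were Papss2 (4.15-fold), Slc26a2 (3.67-fold), Csgalnact1 (3.12-fold), Extl1 (2.73-fold), Slc35d1 (2.57-fold), Chst11 (2.37-fold) and Ugdh (2.16-fold), of which 4 serve supply, 2 the chondroitin chain and its sulfation, and 1 the heparan chain. DESeq2 called 14 higher and 1 lower. In 20 of the 43 genes all DIO mice were above all lean mice, beside 10.2% of all genes, and in 3 (Chst15, Ust and Ndst2) all were below, beside 11.9%. The median log2 fold change of the 43 was 0.44, and that of all 15753 genes tested was -0.0013. No gene was called without lean d7 mouse 1 or without lean d7 mouse 2. Leaving out DIO d7 mouse 1 left 3 genes (Slc35d1, Ugdh, Csgalnact1 and Extl1 were lost), leaving out DIO d7 mouse 2 left 4 (Slc26a2, Ugdh and Csgalnact1 were lost), and leaving out DIO d7 mouse 3 gave 14. Extl1 was also lost without lean d7 mouse 3.

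On d3 edgeR called none of the 43 between diets, nor any other gene (0% of all genes), with 4 of the 43 at an unadjusted p under 0.05, and DESeq2 also called none of them. The DIO mice were then all above the lean mice in 3 genes, beside 8.84% of all genes, and all below in 1, beside 12%. On d5 Csgalnact1 was higher in DIO calli and none of the 43 was lower, where 0.134% of all genes were called higher and 0.948% lower, and in 17 of the 43 genes the DIO mice were all above the lean mice, beside 10.9% of all genes, and in none all below, beside 12.3%. DESeq2 called 11 genes on d5, all higher. Csgalnact1 was lost without any of the d5 mice but lean d5 mouse 3, without which 10 genes were called. On d10 edgeR called none (0% of all genes), with 8 of the 43 at an unadjusted p under 0.05 and none called by DESeq2. The DIO mice were then all below the lean mice in 9 of the 43, beside 7.31% of all genes, and all above them in 2, beside 6.84%.

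The change of the diet difference was itself tested, over the 24 calli taken on the shared days. From d7 to d10 the difference moved down for 14 of the 43 genes and up for none, beside 3.37% and 1.7% of all genes, and DESeq2 called 18, all down. Over d3 to d10 as a whole, 5 of the 43 had a course that differed between diets (Papss2, Ugdh, Csgalnact1, Slc26a2 and Slc35d1), beside 1.65% of all genes, and 13 differed between diets on any day, beside 5.91%. Without lean d10 mouse 1 these counts were 6, 3 and 14, and without lean d7 mouse 2 they were 6, 0 and 4. The count of 14 was also 9 without lean d7 mouse 1, DIO d7 mouse 2 or DIO d10 mouse 3, and 7 without DIO d10 mouse 1. The count of 5 was 0 without DIO d10 mouse 1 or 2, 2 without DIO d10 mouse 3, 3 without lean d7 mouse 1 or DIO d7 mouse 2, and 9 without lean d10 mouse 2. The count of 13 was 5 without lean d5 mouse 2 or lean d7 mouse 1, 6 without DIO d5 mouse 3, 7 without DIO d5 mouse 2, DIO d7 mouse 1 or DIO d7 mouse 2, and 8 without lean d3 mouse 2.

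**Figure D2:**
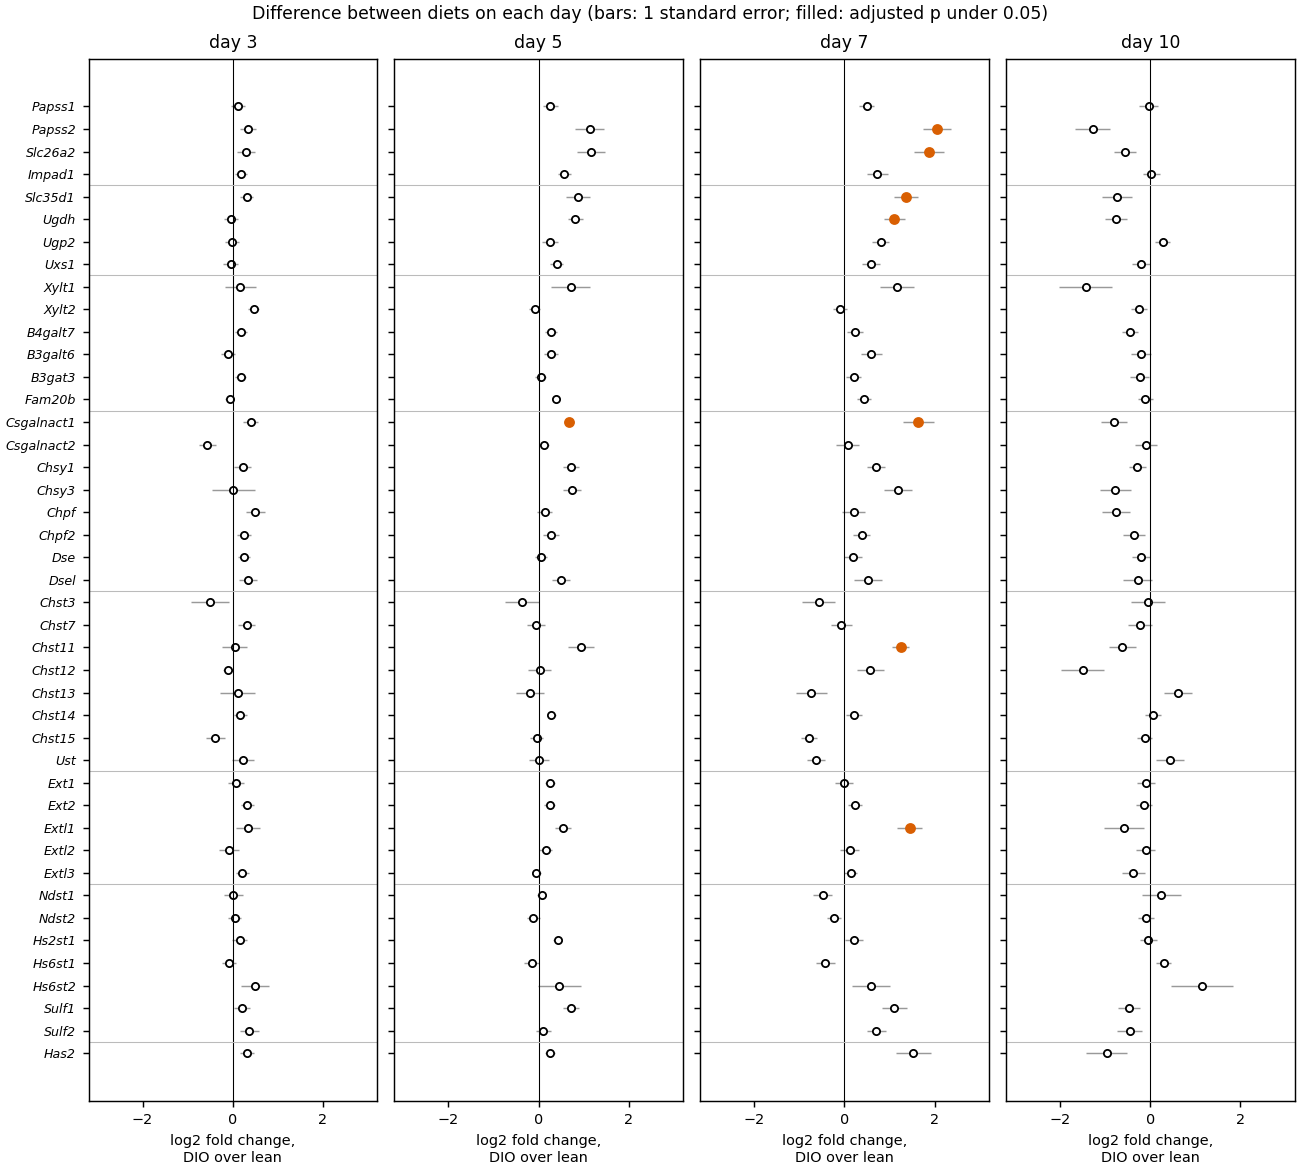
The log2 fold change of DIO over lean calli for each of the 43 genes on d3, d5, d7 and d10 (points, with bars of 1 SE; 3 mice against 3), with filled points for an adjusted p under 0.05. The 7 filled points of d7 all lie to the right of 0, the 1 filled point of d5 is Csgalnact1, and on d3 and d10 no point is filled.

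Other measures moved with the diet as well. The 13 chondrocyte markers had a higher mean in DIO calli on d5 and d7, and their summed level on d10 was below that of every lean callus. Of these markers, 6 were called higher in DIO calli on d7, beside 1.4% of all genes. Of 10 osteoblast markers, 8 had a lower log2 level in DIO calli on d7 and 2 a higher one, and all 8 endothelial markers had a lower one. Of 10 leukocyte markers, 5 were called lower in DIO calli on d5 and 1 on d7, beside 0.948% and 0.92% of all genes. Their summed level on d5 was 1177 to 1360 CPM in DIO calli and 2133 to 3193 CPM in lean calli. On d7 their summed level was 1029 to 2098 CPM in DIO calli and 2374 to 3047 CPM in lean calli. That of 8 adipocyte markers was lower in DIO calli on d7, at 195 to 284 CPM against 328 to 409 CPM in lean calli. On d10 it was higher, at 409 to 647 CPM in DIO calli and 150 to 366 CPM in lean calli. It reached 1165 to 1230 CPM in DIO calli of d21. Skeletal muscle markers ranged from 436 CPM in DIO d21 mouse 1 to 30223 CPM in DIO d10 mouse 2. The part of these cell types in the results for the 43 genes was not tested.

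**Figure D3:**
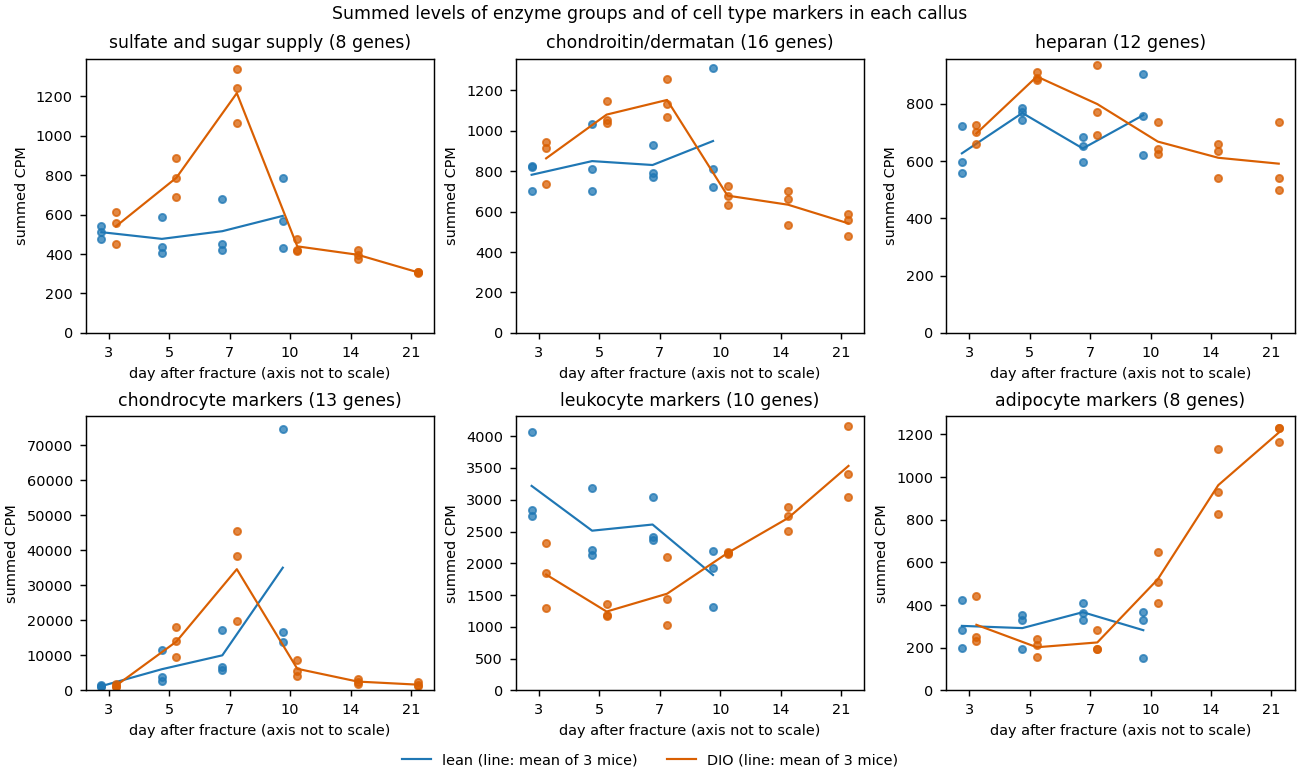
Summed CPM in each callus (points) and its mean over 3 mice (lines) for the 8 supply genes, the 16 chondroitin and dermatan genes, the 12 heparan genes, and the markers of chondrocytes (13), leukocytes (10) and adipocytes (8), by day after fracture in lean (blue) and DIO mice (orange). The supply genes of DIO calli reached 1067 to 1337 CPM on d7 and 417 to 479 CPM on d10, and chondrocyte markers were highest in lean d10 mouse 1, at 74566 CPM.

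The summed level of the 8 supply genes was 1244, 1337 and 1067 CPM in DIO calli of d7 and 450, 419 and 679 CPM in lean calli, and 5 of the 8 rose from d3 to d7 in DIO calli before 7 fell to d10. Per kilobase of exon, Papss2 had the highest level of the 43 genes in DIO calli of d7. Slc26a2 is the transporter that brings sulfate into chondrocytes, and Papss1 and Papss2 turn it into PAPS, the sulfate donor of every sulfotransferase. Papss2 (chr19:32595790-32667187, plus strand, GRCm38) was at 47.8, 69.9 and 70.6 CPM in DIO calli of d3, 139, 164 and 100 CPM on d5 and 280, 307 and 248 CPM on d7. Lean calli had 49.4, 47.7 and 105 CPM on d7. All DIO mice were thus above all lean mice on d7, by a log2 fold change of 2.05 ± 0.30 (SE, adjusted p = 0.0158), and above DIO mice of d3 by 2.15 ± 0.21 (adjusted p = 9.43e-06).

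On d10 the order of the diets was turned. Papss2 was then at 39.9, 45.9 and 53.7 CPM in DIO calli and at 198, 65.8 and 77.1 CPM in lean calli, of which mouse 1 stood apart. The diet difference on d10 itself was -1.27 ± 0.39 and was not called (adjusted p = 0.686). The change of the diet difference from d7 to d10 was the largest of the 43 genes, at -3.33 ± 0.53 (adjusted p = 0.00269), and it was called with each mouse left out in turn. In DIO calli the level went on to 23.1 to 25.7 CPM on d21, lower than on d14 by 0.61 ± 0.20 (adjusted p = 0.0451), a call that was lost without any of the mice of those days but DIO d14 mouse 2.

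Slc26a2 moved like Papss2 in DIO calli. It was at 40.8, 66.1 and 69.1 CPM on d3, 192, 288 and 223 CPM on d7 and 40.6, 42.2 and 46.8 CPM on d10. In lean calli of d7 it was at 45.5, 44.9 and 102 CPM, below each DIO callus, and the diet difference was 1.87 ± 0.33 (adjusted p = 0.0241). In lean calli of d10 it was at 91.8, 47.9 and 52.3 CPM, above every DIO callus of that day, and the change of the difference was -2.44 ± 0.46 (adjusted p = 0.00573).

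Impad1, a Golgi phosphatase that clears the by-product of sulfation, followed with a smaller range. It rose from 57.6, 75.2 and 79.2 CPM on d3 to 133, 144 and 102 CPM on d7 in DIO calli (0.84 ± 0.16, adjusted p = 0.00382) and fell by 0.93 ± 0.16 to d10 (adjusted p = 0.000985). Papss1, the paralog of Papss2, ranged from 27.9 to 69.5 CPM over all libraries, and it fell by 0.63 ± 0.18 from d7 to d10 in DIO calli (adjusted p = 0.0222), a call lost without DIO d7 mouse 2 or 3 or DIO d10 mouse 2. Per kilobase of exon, Papss2 was at 2.93 to 3.89 times the level of Papss1 in DIO calli of d7, at 0.792 to 1.69 times in lean calli of d7 and at 0.545 to 0.699 times in DIO calli of d21. In lean calli of d10 the ratio was 3.88 in mouse 1 and 1.55 and 1.19 in mice 2 and 3.

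Promoter sequences are shown for Papss2, which has 2 start sites, and for Slc35d1 and Chst11, which are among the genes that rose from d3 to d7 in DIO calli. Of the others that rose, Slc26a2, Csgalnact1, Xylt1, Sulf1 and Impad1 had no window available, and the windows of Extl1, Ugdh and Fam20b are not shown. Each sequence is the stretch of 250 bases before a RefSeq start site, on the strand of the gene and in GRCm38.p6. Capitals mark a GC box (GGGCGG) or the core letters of a SOX motif (AACAAT), searched on both strands. The first Papss2 start lies just before the gene's annotated 5' end and the second lies inside it.
Papss2, chr19:32595465-32595714, plus strand: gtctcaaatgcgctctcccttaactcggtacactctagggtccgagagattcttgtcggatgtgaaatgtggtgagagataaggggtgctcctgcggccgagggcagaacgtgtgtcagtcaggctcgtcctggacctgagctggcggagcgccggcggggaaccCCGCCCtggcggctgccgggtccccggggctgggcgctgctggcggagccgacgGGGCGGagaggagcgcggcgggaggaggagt
Papss2, chr19:32619755-32620004, plus strand: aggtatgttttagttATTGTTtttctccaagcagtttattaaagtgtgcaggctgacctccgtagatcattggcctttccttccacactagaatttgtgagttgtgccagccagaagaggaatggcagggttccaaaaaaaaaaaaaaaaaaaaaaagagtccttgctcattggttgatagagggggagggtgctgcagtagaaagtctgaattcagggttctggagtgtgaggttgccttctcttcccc
Slc35d1, chr4:103215177-103215426, minus strand: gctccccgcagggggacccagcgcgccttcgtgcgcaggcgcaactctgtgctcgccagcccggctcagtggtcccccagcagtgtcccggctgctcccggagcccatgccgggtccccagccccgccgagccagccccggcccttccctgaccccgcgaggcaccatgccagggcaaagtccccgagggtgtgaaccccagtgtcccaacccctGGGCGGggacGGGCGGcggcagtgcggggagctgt
Chst11, chr10:82985247-82985496, plus strand: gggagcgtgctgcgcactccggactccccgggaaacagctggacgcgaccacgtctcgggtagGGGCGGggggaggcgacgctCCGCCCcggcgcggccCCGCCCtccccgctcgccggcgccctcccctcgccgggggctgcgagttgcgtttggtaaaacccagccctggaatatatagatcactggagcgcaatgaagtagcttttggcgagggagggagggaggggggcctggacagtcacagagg
The AACAAT letters were found in 2 of the 42 windows of 33 matched members (4.76%), the second Papss2 start among them, and in 9.42% of 32851 windows of all genes. The GC box was found in 28 of the 42 windows (66.7%) and in 32.7% of all. TGACGTCA was found in 2.38% and 1.55% of these windows, and ACGTG in 23.8% and 16.6%. No motif of these contains another. These are matches of letters and not sites of binding, and the factors were not measured here.

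Of the nucleotide sugar genes, Slc35d1 and Ugdh moved with sulfate supply. Slc35d1 (chr4:103170649-103215164, minus strand) carries UDP-glucuronic acid and UDP-N-acetylgalactosamine into the endoplasmic reticulum. It was at 18.7, 19.1 and 20.3 CPM in DIO calli of d3, 88.1, 65.1 and 79.8 CPM on d7 and 15.2, 18.8 and 20.5 CPM on d10. Lean calli of d7 had 25.7, 21.7 and 44.1 CPM, all below the DIO calli, a difference of 1.36 ± 0.27 (adjusted p = 0.0341). The rise from d3 to d7 in DIO calli was 2.00 ± 0.18 (adjusted p = 6.1e-06), and the fall to d10 was 2.1 ± 0.18 (adjusted p = 1.92e-06).

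Ugdh (chr5:65413221-65435949, minus strand) makes UDP-glucuronic acid, the sugar of chondroitin, heparan and hyaluronan chains alike. It stood at 241, 244 and 179 CPM in DIO calli of d7 against 95.2, 78 and 137 CPM in lean calli, a difference of 1.11 ± 0.24 (adjusted p = 0.0437) with no overlap. On d10 the lean calli, at 215, 103 and 143 CPM, were all above the DIO calli, at 87, 83.2 and 99.6 CPM. The change of the diet difference was -1.87 ± 0.33 (adjusted p = 0.00369). Of its exons, 2.34% overlap the gene model Gm43552 on the same strand.

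Ugp2, which makes UDP-glucose, and Uxs1, which makes UDP-xylose for the linker, were not called between diets on any single day. Ugp2 fell from 145, 138 and 160 CPM on d3 to 79.8, 73.3 and 96.1 CPM on d10 in lean calli (-0.80 ± 0.16, adjusted p = 0.00383), the one supply gene that did. On d7 it was at 199, 167 and 128 CPM in DIO calli and at 99.3, 83.2 and 104 CPM in lean calli. Uxs1 lay between 20.5 and 56.4 CPM in all libraries.

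Of the 6 linker genes, Xylt1 and Xylt2 attach the xylose to the core protein, B4galt7 and B3galt6 add the galactoses, B3gat3 adds glucuronic acid and Fam20b phosphorylates the xylose. In lean calli from d3 to d10, 3 of the 6 rose and none fell, beside 15.2% and 14.1% of all genes. B3gat3 (chr19:8920374-8927236, plus strand) was at 71.3, 75.1 and 83.9 CPM on d3 and at 158, 121 and 92.3 CPM on d10 (0.73 ± 0.18, adjusted p = 0.0118). B4galt7 and Xylt2 rose by 0.57 ± 0.18 and 0.54 ± 0.15 (adjusted p = 0.031 and 0.0182), and neither was called without lean d10 mouse 1 or lean d3 mouse 2, nor B4galt7 without lean d3 mouse 3.

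In DIO calli the linker genes Xylt1 and Fam20b rose from d3 to d7. Xylt1 went from 4.26, 5.62 and 5.93 CPM to 8.81, 11.9 and 12.8 CPM (1.08 ± 0.28, adjusted p = 0.026), and was at 3.53, 2.38 and 2.59 CPM on d10. In lean calli of d10 it was at 15.7 CPM in mouse 1 and at 3.55 and 4.02 CPM in the others. Its call from d3 to d7 was lost without any of those mice but DIO d7 mouse 1. Fam20b went from 53, 59.4 and 61.9 CPM to 92.8, 83 and 89.2 CPM (0.61 ± 0.12, adjusted p = 0.00361), and this call was kept with each of these mice left out.

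Levels of the xylosyltransferases differed in size as well as in course. Per kilobase of exon, Xylt2 was at 9.63 to 13 times the level of Xylt1 in DIO calli of d7 and at 36.6 to 85.3 times on d14. Within groups of lean calli the ratio spread from 11.6 to 38.7 on d10, which overlaps the range of the other lean days. No linker gene was called between diets on a single day, while the difference changed from d7 to d10 for Xylt1 (-2.61 ± 0.73, adjusted p = 0.0433) and B3galt6 (-0.81 ± 0.23, adjusted p = 0.0457). Both of these calls were lost without lean d10 mouse 1 and most other single mice.

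Of the chondroitin and dermatan chain genes, Csgalnact1 set the diets apart on more than 1 day. Csgalnact1 (chr8:68356781-68735146, minus strand) and its paralog Csgalnact2 add the N-acetylgalactosamine that commits a linker to chondroitin. Csgalnact1 was at 61.3, 51.5 and 59.1 CPM in DIO calli of d5 and at 34, 36.3 and 37.9 CPM in lean calli (0.67 ± 0.11, adjusted p = 0.0432). On d7 it was at 63.1, 93 and 49.9 CPM against 21.9, 12.8 and 31.6 CPM (1.64 ± 0.33, adjusted p = 0.0382). The d5 call was lost without any of the d5 mice but lean d5 mouse 3. The d7 call was lost without lean d7 mouse 1 or 2 or DIO d7 mouse 1 or 2. The ranges of the diets did not overlap on d3, d5, d7 or d10, with the DIO mice above on d3 to d7 and below on d10.

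From d7 to d10 Csgalnact1 fell in DIO calli to 11.7, 8.94 and 8.89 CPM, by 2.80 ± 0.21 on the log2 scale (adjusted p = 4.37e-07), and it stayed between 7.71 and 10.9 CPM to d21. Csgalnact2 had no such peak. It was at 30.7, 36.4 and 31.3 CPM in DIO calli of d3 and at 64.3, 42.4 and 54.8 CPM on d21, and in lean calli it fell by 0.86 ± 0.25 from d3 to d10 (adjusted p = 0.0252), a call lost without lean d10 mouse 1 or 2 or lean d3 mouse 2. Per kilobase of exon, Csgalnact1 was at 1.35 to 2.40 times the level of Csgalnact2 in DIO calli of d7 and at 0.181 to 0.236 times on d21. The lean ratio ranged from 0.378 to 1.14 over d3 to d10.

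Chsy1 and Chsy3 are chondroitin synthases, and Chpf and Chpf2 are their partners in polymerisation. Chsy1 was at 183, 230 and 175 CPM in DIO calli of d7 and at 80.1, 79.2 and 95 CPM on d10, a fall of 1.21 ± 0.19 (adjusted p = 0.000342). Chsy3, at 10.3, 17 and 8.94 CPM on d7, fell by 2.25 ± 0.41 to 2.76, 2.23 and 2.59 CPM (adjusted p = 0.00135). On d7 all DIO calli were above all lean calli for Chsy1, Chsy3 and Chpf2, with differences of 0.71 ± 0.20, 1.18 ± 0.31 and 0.39 ± 0.19, none of them called. Chpf2 shares 44.1% of its exon length with Smarcd3 on the opposite strand and 1.75% with Mir671 on its own.

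Chpf was at 275 CPM in lean d10 mouse 1 and at 125 and 117 CPM in mice 2 and 3, against 96.7 to 106 CPM in DIO calli of that day. Dse and Dsel are the epimerases that turn chondroitin into dermatan. Both were lower in DIO calli on d10 than on d3, by 0.88 ± 0.18 (adjusted p = 0.0028) and 0.82 ± 0.28 (adjusted p = 0.0473), the latter lost without DIO d3 mice 2 or 3 or DIO d10 mice 1 or 2. Dse was at 73.7, 75.9 and 60 CPM on d3 and at 39.9, 32.6 and 41 CPM on d10, with no overlap. It fell again from d14 to d21, by 0.54 ± 0.18 (adjusted p = 0.0463), a call lost without DIO d14 mice 1 or 3 or DIO d21 mice 1 or 2.

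Chst11 was the one chondroitin sulfotransferase that was called between diets on a single day. It adds the 4-O-sulfate that prevails in cartilage, as do Chst12 and Chst13. Chst11 (chr10:82985498-83195900, plus strand) was at 212, 197 and 209 CPM in DIO calli of d7 and at 79.4, 77.1 and 106 CPM in lean calli, a difference of 1.24 ± 0.18 (adjusted p = 0.0152) with no overlap. In lean calli it rose by d10 to 240, 96.9 and 136 CPM (1.10 ± 0.34 against d3, adjusted p = 0.029), while in DIO calli it fell to 113, 86.4 and 105 CPM. The lean rise was lost without lean d10 mouse 1 or any of the d3 mice.

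Chst12 was at 38.5, 44.3 and 35.5 CPM in DIO calli of d10, below each lean callus, at 214, 74.1 and 49 CPM, of which mouse 1 stood apart. It fell in DIO calli from d3 to d10 by 0.91 ± 0.27 (adjusted p = 0.021), a call lost without DIO d3 mouse 2 or DIO d10 mice 1 or 3. Chst13 went the other way, and rose from 6.61, 4.70 and 12 CPM on d7 to 13.6, 16.1 and 19 CPM on d10 in DIO calli (1.06 ± 0.33, adjusted p = 0.0395). This call was lost without any of those mice but DIO d7 mouse 3. Chst14, which sulfates dermatan, fell from d14 to d21 by 0.56 ± 0.15 (adjusted p = 0.0183), to 13.1, 17.4 and 12.8 CPM, and lost its call without DIO d14 mice 1 or 3 or DIO d21 mice 1 or 3.

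Chst3 and Chst7 add the 6-O-sulfate of chondroitin. In DIO calli Chst3 was at 7.36, 3.01 and 4.77 CPM on d7, at 15.9, 10.5 and 5.81 CPM on d10, at 23.2, 36.7 and 22.9 CPM on d14 and at 35.1, 48.4 and 76 CPM on d21. All calli of d14 and d21 were above all earlier ones, and Chst3 differed between the 6 days (adjusted p = 7.04e-07), although neither of the steps to d14 and to d21 was called by itself. Per kilobase of exon, Chst11 was at 33.9 to 76.7 times the level of Chst3 in DIO calli of d7 and at 1.04 to 2.49 times on d21. In lean calli the ratio ranged from 5.65 to 22.7 over d3 to d10. The pairs of genes in these ratios were chosen after their values were seen.

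Chst15, which adds a 6-O-sulfate to units that already carry the 4-O-sulfate, and Ust, which sulfates uronic acid, were lower in DIO than in lean calli of d7. Chst15 was at 32.1, 26.7 and 36.9 CPM against 51.9, 53.8 and 60.8 CPM (-0.79 ± 0.18, adjusted p = 0.0538), and Ust at 16.5, 14.8 and 15.3 CPM against 20.1, 25.1 and 28 CPM (-0.64 ± 0.20, adjusted p = 0.14). The diets did not overlap for either gene, and neither was called. Ust rose from d7 to d10 in DIO calli, to 43.3, 24.1 and 33.8 CPM (1.12 ± 0.27, adjusted p = 0.0102), a call lost without DIO d10 mouse 1. Chst15 shares 17.9% of its exon length with Gm10584 on the opposite strand.

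**Figure D4:**
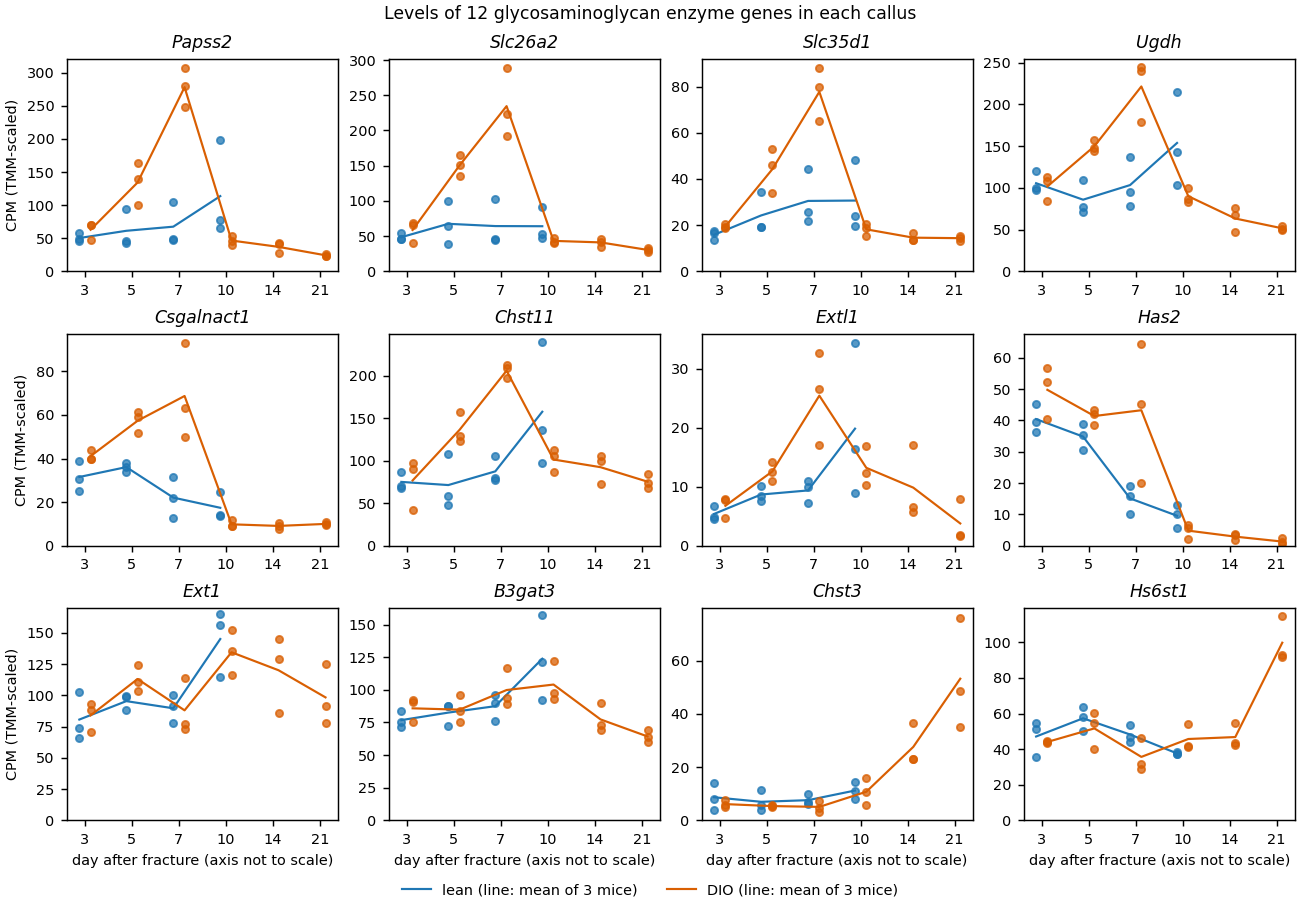
CPM in each callus (points) and its mean over 3 mice (lines) for 12 of the 43 genes, by day after fracture in lean (blue, d3 to d10) and DIO mice (orange, d3 to d21). Papss2, Slc26a2, Slc35d1, Ugdh, Csgalnact1 and Chst11 peak on d7 in DIO calli above every lean callus of that day, Has2 ends at 0.518 to 2.43 CPM on d21, and Chst3 and Hs6st1 are highest on d21.

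Of the 5 heparan chain genes, 3 rose in lean calli from d3 to d10, where 15.2% of all genes were called higher. Ext1 and Ext2 together polymerise heparan, and Extl3 starts the chain. Ext1 (chr15:53064038-53346159, minus strand) was at 102, 65.7 and 73.6 CPM in lean calli of d3 and at 156, 114 and 165 CPM on d10 (0.88 ± 0.19, adjusted p = 0.00618), and Ext2 rose by 0.69 ± 0.14 (adjusted p = 0.00502). In DIO calli Ext1 was at 152, 116 and 136 CPM on d10, higher than on d3 by 0.68 ± 0.22 (adjusted p = 0.0326), a call lost without any of those mice but DIO d10 mouse 2. The diets overlapped for Ext1 on d3, d7 and d10.

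Extl1, a glycosyltransferase of the same family, was the one heparan gene called between diets on d7. It was at 26.6, 17.1 and 32.7 CPM in DIO calli of d7 and at 9.96, 7.28 and 10.9 CPM in lean calli, a difference of 1.45 ± 0.28 (adjusted p = 0.0315) with no overlap. In lean calli it rose from 6.82, 4.84 and 4.55 CPM on d3 to 34.3, 16.4 and 8.89 CPM on d10 (1.92 ± 0.41, adjusted p = 0.00551), and was called with each of these mice left out. Its rise from d3 to d7 in DIO calli, 1.92 ± 0.50 (adjusted p = 0.0273), was lost without any of those mice but DIO d7 mouse 2. Extl2 fell by 0.63 ± 0.20 from d14 to d21 (adjusted p = 0.0368), to 14.2, 12 and 13.6 CPM, and was not called without any of those mice but DIO d14 mouse 2. Extl3 lay between 46.1 and 130 CPM in all libraries and was not called in any comparison of 2 groups.

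Of the 7 heparan sulfation genes, 2 rose and 1 fell from d14 to d21 in DIO calli, beside 10.6% and 9.03% of all genes. Ndst1 and Ndst2 replace acetyl groups with sulfate, and Hs2st1, Hs6st1 and Hs6st2 add O-sulfates. Hs6st1 (chr1:36068400-36106446, plus strand) was at 43.3, 54.5 and 42.6 CPM on d14 and at 92.6, 115 and 91.8 CPM on d21, all above the earlier days, a rise of 1.09 ± 0.19 (adjusted p = 0.00118) that was called with each mouse left out. It shares 8.07% of its exon length with Gm37335 on the opposite strand. Ndst2 rose by 0.79 ± 0.21 (adjusted p = 0.0161), from 52.9, 48 and 50.5 CPM to 98, 110 and 54 CPM, and lost its call without DIO d21 mouse 1 or 2 or DIO d14 mouse 3.

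Hs6st2, at 0.88, 1.77 and 0.37 CPM on d14 and 0.23, 0.176 and 0.414 CPM on d21, was called lower (-1.82 ± 0.60, adjusted p = 0.0417) on 3 to 8 counts per library of d21, with ranges that overlapped. This call was lost without DIO d14 mice 1 or 2 or DIO d21 mice 1 or 2. In lean calli it was at 1.31 to 2.63 CPM on d7 and at 0.125, 0.67 and 1.02 CPM on d10. Hs2st1 lay between 30.7 and 72.6 CPM, and it was at 64.5, 70.6 and 70 CPM in DIO calli of d5 against 47.2, 50.8 and 54.9 CPM in lean calli (0.43 ± 0.10, adjusted p = 0.0918). Ndst1 ranged from 25.2 to 76.8 CPM, both in DIO calli of d10.

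Sulf1 and Sulf2 are the secreted sulfatases that remove 6-O-sulfate from finished heparan chains. Sulf1 was at 82.3, 88.6 and 108 CPM in DIO calli of d3, at 151, 263 and 124 CPM on d7 and at 76.7, 75.8 and 85.5 CPM on d10. The rise was 0.95 ± 0.23 (adjusted p = 0.019), lost without DIO d3 mice 1 or 2 or DIO d7 mouse 2, and the fall was 1.18 ± 0.23 (adjusted p = 0.00258). On d7 all DIO calli were above the lean calli, at 82.9, 66.4 and 102 CPM, a difference of 1.11 ± 0.28 that was not called (adjusted p = 0.081). Sulf2 fell from d3 to d10 in DIO calli by 0.93 ± 0.25 (adjusted p = 0.0128), to 49.8, 37.6 and 36.9 CPM, a call lost without DIO d3 mouse 1 or DIO d10 mice 2 or 3.

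Has2, which makes hyaluronan, fell over time in both diets. Has2 (chr15:56665627-56694539, minus strand) was at 45.3, 39.6 and 36.3 CPM in lean calli of d3, at 15.9, 10.3 and 19.2 CPM on d7 and at 12.9, 5.77 and 10.1 CPM on d10. The fall to d7 was 1.39 ± 0.28 (adjusted p = 0.0281) and that to d10 was 2.04 ± 0.29 (adjusted p = 0.000714). DIO calli were still at 45.2, 64.5 and 20 CPM on d7, above every lean callus, with a difference of 1.52 ± 0.39 that was not called (adjusted p = 0.0813).

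By d10 DIO calli had 2.22, 5.77 and 6.51 CPM of Has2, and by d21 0.518, 1.12 and 2.43 CPM. The fall from d3 to d10 was 3.36 ± 0.46 (adjusted p = 9.28e-05), and it was called with each of these mice left out. The diet difference changed by -2.5 ± 0.52 from d7 to d10 (adjusted p = 0.00932), and this too was called with each mouse left out.

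**Figure D5:**
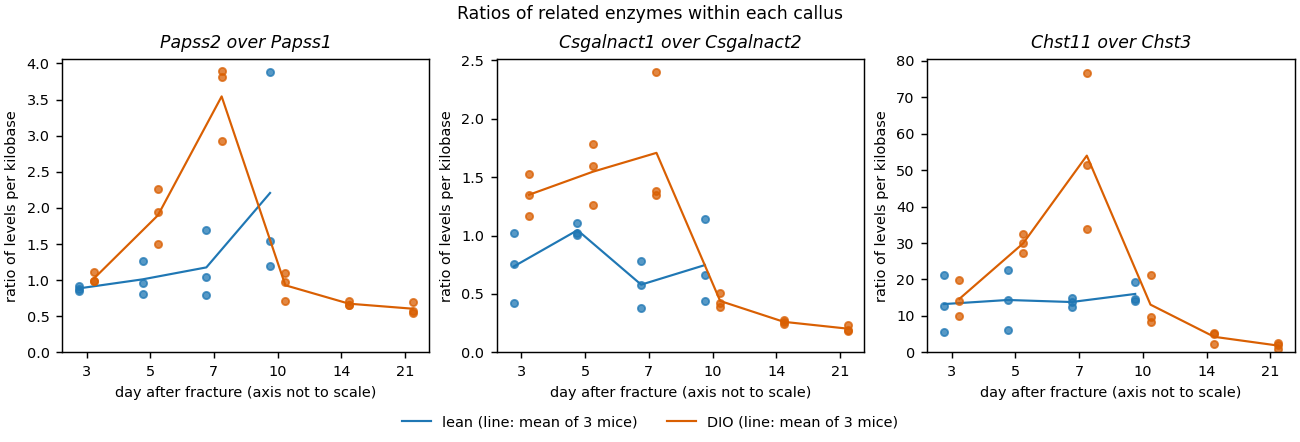
Ratios of levels per kilobase of exon within each callus (points) and their mean over 3 mice (lines) for Papss2 over Papss1, Csgalnact1 over Csgalnact2 and Chst11 over Chst3, by day after fracture in lean (blue) and DIO mice (orange). In DIO calli the ratio of Chst11 to Chst3 is 33.9 to 76.7 on d7 and 1.04 to 2.49 on d21.

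Other genes of the pathway were taken from 3 further lists, of 24 synthesis genes, 30 core proteins and 19 degradation genes. Core proteins carry the chains, and in lean calli 17 of the 27 tested rose and 2 fell from d3 to d10, beside 15.2% and 14.1% of all genes, with a median log2 fold change of 1.18 beside 0.023 for all genes. Sdc2, a cell surface carrier of heparan, rose by 1.65 ± 0.17 to 273 CPM (adjusted p = 0.000115). Prg4, the joint lubricant lubricin, fell by 3.56 ± 0.39 from 257 to 21.4 CPM (adjusted p = 0.000176). In DIO calli 10 of 27 rose and 2 fell from d3 to d7, beside 4.67% and 2.62% of all genes. On d7, 4 of 27 were higher in DIO than in lean calli and none was lower, beside 1.4% and 0.92% of all genes, with a median of 0.27, among them Cspg4 (1.21 ± 0.23, adjusted p = 0.0289) and the small proteoglycan Fmod (1.19 ± 0.22, adjusted p = 0.0293).

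Of the 19 degradation genes, 13 rose and 3 fell from d3 to d10 in lean calli, beside 15.2% and 14.1% of all genes. In DIO calli 10 rose and 3 fell, beside 11.1% and 10.8%. Arsb, the sulfatase that removes the 4-O-sulfate of chondroitin and dermatan, had mean levels of 56.6 CPM in DIO and 146 CPM in lean calli of d7, a difference of -1.35 ± 0.19 (adjusted p = 0.0152). Hpse, the heparanase, was at 14.2 and 27.1 CPM (-0.92 ± 0.17, adjusted p = 0.0294). Of the 19 genes, 3 were called between diets on d7, and all were lower in DIO calli, where 0.92% of all genes were called lower. From d7 to d10 Arsb rose in DIO calli by 2.53 ± 0.25 (adjusted p = 4.8e-06), to a mean of 328 CPM.

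Among the further synthesis genes, 2 of 22 were higher in DIO calli on d7 and none was lower, beside 1.4% and 0.92% of all genes. Gfpt2, which makes glucosamine phosphate for amino sugars, had means of 63.6 and 22.3 CPM (1.52 ± 0.21, adjusted p = 0.015). From d7 to d10 in DIO calli 9 of 22 fell and 1 rose, beside 7.01% and 6.01% of all genes, and Gfpt2 fell by 2.55 ± 0.29 to 10.8 CPM (adjusted p = 1.93e-05). Has1, another hyaluronan synthase, fell by 2.67 ± 0.33 from d3 to d10 (adjusted p = 3.52e-05), from 5.62 to 0.877 CPM.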

How the data were processed

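RNA was extracted from whole calli, and stranded polyA libraries were sequenced on a NovaSeq. Per the labels and the study's methods, the authors demultiplexed with bcl2fastq, trimmed with BBDuk, aligned to GRCm38 with HISAT2 2.1.0 and counted with HTSeq. The deposited values are raw counts per gene. The HTSeq version, strand setting and annotation are not given in the sources used here. Totals ran from 13247122 to 26365620, and a change that few counts support is less precise.

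Groups came from the labels (3 mice per diet and day). Symbols, exon lengths and positions were those of GENCODE M21, which held 42462 of the 43629 identifiers. Fits used edgeR 4.0.16 (R 4.3.3; TMM factors, filterByExpr, quasi-likelihood F-test, two-sided, Benjamini-Hochberg adjustment over all genes tested). Lean courses used the 12 lean and DIO courses the 18 DIO libraries, diets on 1 day used the 6 libraries of that day, and the change between days used the 24 of d3 to d10. Genes whose levels in 3 mice of each group did not overlap were counted without a test. A count of 3 was taken as the floor of detection. Figures were drawn with matplotlib 3.10.9.

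DESeq2 1.42.0, RLE factors, no filter, a replicate block, all 30 libraries in 1 fit and the omission of each mouse were tried as alternatives. The members and lists were chosen with earlier results of these data known. The rule for named genes gave full statistics to at most 5 genes per direction and comparison. Those of further genes, the comparison of d10 with d7 in DIO calli and the ratios were added after values were seen. The fits were tested on simulated data, with 200 genes changed among 15753 in the comparison of diets on d7. Of these, edgeR called 39 of 102 changed by 2-fold and 96 of 98 changed by 4-fold, with 15 false calls. DESeq2 called 61 and 97, with 34 false calls. Values of some genes on the further lists are not reported here.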

Additional observations from a re-analysis of the deposited data

Results flagged for a closer look

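The results in this section were singled out because the effect of diet differed between days by a test of the difference itself (edgeR quasi-likelihood test in the 24 libraries of d3 to d10, adjusted over all genes). From d7 to d10 the log2 difference between DIO and lean calli changed by -3.33 for Papss2, -2.44 for Slc26a2, -2.1 for Slc35d1 and -1.87 for Ugdh, which supply sulfate and nucleotide sugars. In the linker it changed by -2.61 for Xylt1 and -0.81 for B3galt6. Among chondroitin genes it changed by -2.46 for Csgalnact1, -1.0 for Chsy1, -1.96 for Chsy3, -1.87 for Chst11 and -2.07 for Chst12. For the heparan genes Extl1 and Sulf1 it changed by -2.02 and -1.58, and for Has2 by -2.5. Papss2, Slc26a2, Slc35d1, Ugdh, Csgalnact1 and Has2 were called with each mouse of d7 and d10 left out in turn, and each of the other 8 was lost without lean d7 mouse 2 and without lean d10 mouse 1.

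Over d3 to d10 as a whole the diet effect differed between days for Papss2 (adjusted p = 0.0217), Slc26a2 (adjusted p = 0.0308), Slc35d1 (adjusted p = 0.0415), Ugdh (adjusted p = 0.0233) and Csgalnact1 (adjusted p = 0.0233). For all 13 chondrocyte markers the diet difference also moved down from d7 to d10. Of these, 11 were called, beside 3.37% of all genes called lower. Their part in these results was not tested.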

How the results depend on the processing

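No call of the 43 genes changed direction under any alternative. Of 87 calls with a direction, 84 were kept with RLE factors, 81 with all genes that had a count, 74 with the replicate block, 78 with all 30 libraries in 1 fit and 87 with DESeq2, and 405 of 606 with a mouse left out. In simulated data DESeq2 made more false calls than edgeR, 39 against 4 for diet by day and 34 against 15 for diets on d7. Counts that moved by over 1.5 times were as follows, and the cause was not tested. DESeq2 called 15 genes with a diet effect that differed by day, where edgeR called 5, and for DIO over lean 11 on d5 and 15 on d7. It called 16 between d14 and d21 and 1 between d10 and d14 in DIO calli, and 3 between d3 and d7 and 2 between d7 and d10 in lean calli. Without the filter on low counts, edgeR called 8 with a diet effect that differed by day, 5 and 12 for DIO over lean on d5 and d7, and 1 between d10 and d14 in DIO calli. With all 30 libraries it called 14 over the lean days, 1 between lean d7 and d10, 0 for DIO over lean on d5 and 13 on d7.

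The replicate numbers name different mice. The correlation of same-numbered deviations over the 45 pairs of groups had a median of -0.0099, and no comparison had all 3 above 0.1, so the mice were not taken as paired. The replicate block gave 0 for DIO over lean on d5, 5 between d14 and d21 in DIO calli, and 2 and 1 between d3 and d7 and between d7 and d10 in lean calli.

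With each mouse left out, the lowest and highest counts for lean calli were 4 and 8 over all days, 0 and 1 for d7 against d3, 6 and 15 for d10 against d3, and 0 and 3 for d10 against d7. For DIO calli they were 38 and 40 over all days, 7 and 13 for d7 against d3, 5 and 9 for d10 against d3, 18 and 23 for d10 against d7, 0 and 1 for d14 against d10, and 1 and 16 for d21 against d14. For DIO over lean they were 0 and 10 on d5, 0 and 14 on d7 and 0 throughout on d3 and d10. They were 4 and 15 for diet on any day, 0 and 9 for diet by day, and 6 and 17 for the change from d7 to d10. With 3 mice per group, changes of 2-fold were often missed in simulated data, and single days of the diet comparison have the fewest libraries.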
